A study of Mus musculus with 5 samples.

Results

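The genes described here encode the machinery of mitosis and of the spindle checkpoint: mitotic cyclins, kinases, kinesins, centromere and kinetochore proteins, condensin subunits and the checkpoint proteins themselves. They were taken from a list of 49 mouse genes, each represented by the probe set that carried that gene symbol alone and, where several did, had the highest mean signal. Of the 49 genes, 48 were measured among 19938 genes on the array, and Ccnb1 was not analysed here. The samples were 5 primary mouse pancreatic cultures, whose total RNA was read on Affymetrix whole-transcript arrays as a log2 signal per probe set.

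Both groups carried the Pdx-1Cre transgene, which drives Cre recombinase in the pancreatic lineage, and p53L/L, floxed alleles of the tumour suppressor gene p53. The 2 normal ductal cultures were labelled P53L/L with no Apc allele. The 3 PDAC cultures, from pancreatic ductal adenocarcinoma, were labelled APCL/+p53L/L and so held 1 floxed allele of Apc, a scaffold of the beta-catenin destruction complex. Normal ductal replicate 2 has a title that reads Pdx-1 without Cre and leaves out ductal, though its cell type label names ductal cells, and the words mutant cell stand only in the title of PDAC replicate 3. The titles number the cultures of each group as biological replicates. The labels used here give neither ages nor separate animals, so p-values measure the spread between these cultures, which may be technical in part. All were grown in RPMI with 10% serum for under 6 passages, per the labels' protocols.

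Cells enter mitosis when cyclin A and cyclin B activate the kinase Cdk1, after Cdc25 phosphatases remove its inhibitory phosphates. Chromosomes condense, kinetochores attach them to spindle microtubules, and the spindle checkpoint proteins Mad2, BubR1 and Bub3 hold back Cdc20 and the anaphase-promoting complex until every kinetochore is attached. Many of these genes are transcribed together late in the cell cycle by the MuvB complex with B-Myb and Foxm1, and are repressed through the p53, p21 and DREAM axis when p53 is active.

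The deposited values agreed in scale, with array medians of the log2 signal between 5.90 and 6.02. Apc, the gene of the floxed allele, had log2 signals of 9.23 and 9.02 in the 2 normal ductal cultures against 9.001, 9.06 and 8.58 in the PDAC cultures (log2 fold change -0.25, SE 0.20, limma adjusted p = 0.590), and where its probes lie relative to the floxed exon was not checked. The p53 transcript was not analysed here. Of 13 duct markers, 11 were measured, and their mean log2 signal was 10.27 and 10.04 in the 2 normal ductal cultures against 6.46, 7.54 and 9.29 in the PDAC cultures, with every PDAC culture below both normal ductal cultures in 7 of the 11. Krt8 and Cdh1 were among these, with PDAC replicate 1 lowest. Markers of islet cells (10 of 11 measured) averaged 6.09 in normal ductal replicate 1, 7.88 in replicate 2 and 5.24 to 5.32 in PDAC, those of acinar cells (9 of 12) 5.24, 6.89 and 5.36 to 5.43, of endothelial cells (10 of 10) 5.87, 6.82 and 5.36 to 5.42, and of leukocytes (10 of 12) 5.88, 6.41 and 5.25 to 5.77. Fibroblast markers (14 of 14) averaged 8.07 and 10.43 in the 2 normal ductal cultures against 9.48 to 9.81 in PDAC. Their part in the results below was not tested.

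The comparison asked how the mitotic genes differ between PDAC cultures with a floxed Apc allele and cultures labelled normal ductal without it. By label all PDAC cultures and no normal ductal culture held that allele, so the allele and the tumour state cannot be told apart. Most members stood higher in PDAC by a small margin. The mean log2 signal of the 48 members was 9.22 in the first and 9.09 in the second normal ductal culture, whereas PDAC replicates 1, 2 and 3 reached 9.57, 9.75 and 9.75. Every PDAC culture thus lay above both normal ductal cultures in this mean. The median log2 fold change of the members was 0.57, against 0.01 for all genes tested, with single members between -0.06 and 1.15. In bulk RNA, a larger share of dividing cells and more mitotic RNA per dividing cell cannot be told apart.

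In 39 of the 48 members every PDAC culture lay above both normal ductal cultures, a pattern seen in 13.6% of all genes, and in 0 members did every PDAC culture lie below, a pattern seen in 12.8%. These shares depend on equal deposited values and on scaling. Among genes with no equal values the higher pattern held in 39 of 44 members and 23.3% of all genes, a count added after the values were seen. With quantile normalization it held in 36 members and 23.5% of all genes, and with arrays shifted to a common median in 42 members and 38.3%. The limma test, which shares information on the spread between genes, called 0 members higher and 0 lower at an adjusted p under 0.05, while 0.00502% of all genes were called higher and 0.0502% lower. Before adjustment, 26 members were higher at p under 0.05, against 6.5% of all genes, and 0 were lower, against 6.86%. The smallest adjusted p among the members was 0.190. Normal ductal replicate 2 had the higher mean for every marker list except duct, with fibroblast markers at 10.43 against 8.07 in replicate 1. Without replicate 2, every PDAC culture still lay above the remaining normal ductal culture in 39 members (21.0% of all genes). The median log2 fold change of the members was then 0.48. Without normal ductal replicate 1 the higher pattern held in 43 members (35.3% of all genes), with a median of 0.62.

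**Figure D1:**
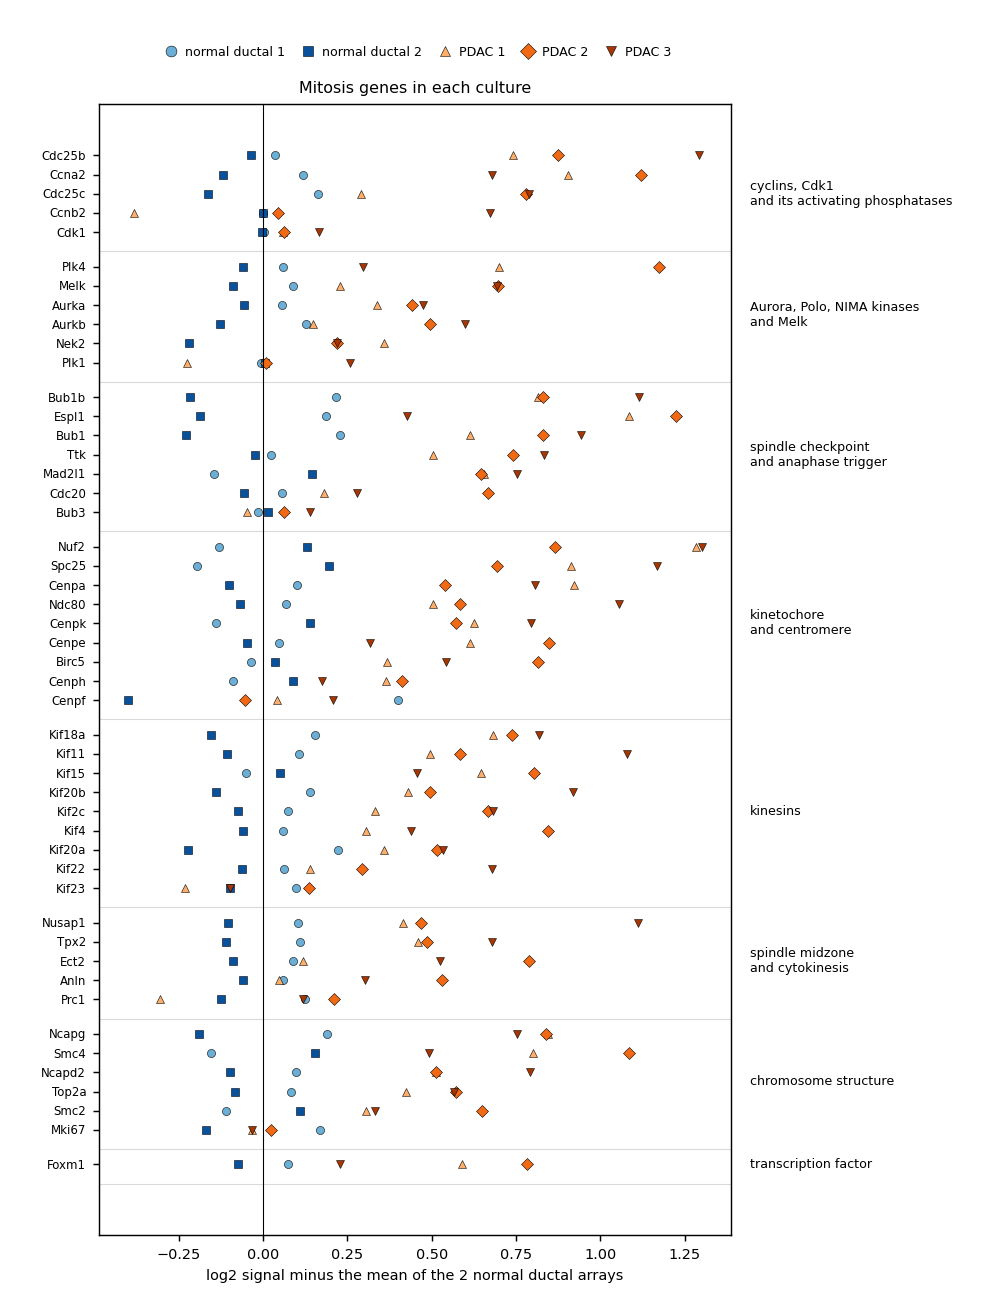
Log2 signal of each of the 48 mitosis genes in each culture, as the difference from the normal ductal mean (horizontal axis), with genes grouped by role and ordered by log2 fold change. In 39 rows all 3 PDAC symbols lie to the right of both normal ductal symbols, and PDAC replicate 1 is often the leftmost of the 3.

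The members differed in size more than in direction. In 30 of the 48 the mean was more than 0.5 higher in PDAC, as it was in 8.86% of all genes, and only Nuf2 exceeded 1, a step passed by 2.59% of all genes. At the other end, 8 members (16.7%) lay within 0.12 of 0, as did 43.3% of all genes: Cdk1, Ccnb2, Plk1, Bub3, Cenpf, Kif23, Prc1 and Mki67. The members with the smallest differences thus included the kinase that starts mitosis and the proliferation marker Mki67, while the 10 members with the largest differences were 3 kinetochore, 3 checkpoint or anaphase and 2 condensin genes, with Ccna2 and Cdc25b. Kinetochore and checkpoint genes stood at both ends. Shifting the arrays to a common median adds 0.08 to the log2 fold change of every gene, so members just below 0 pass it by construction. With quantile normalization Plk1, Prc1 and Bub3 had values below 0.

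**Figure D2:**
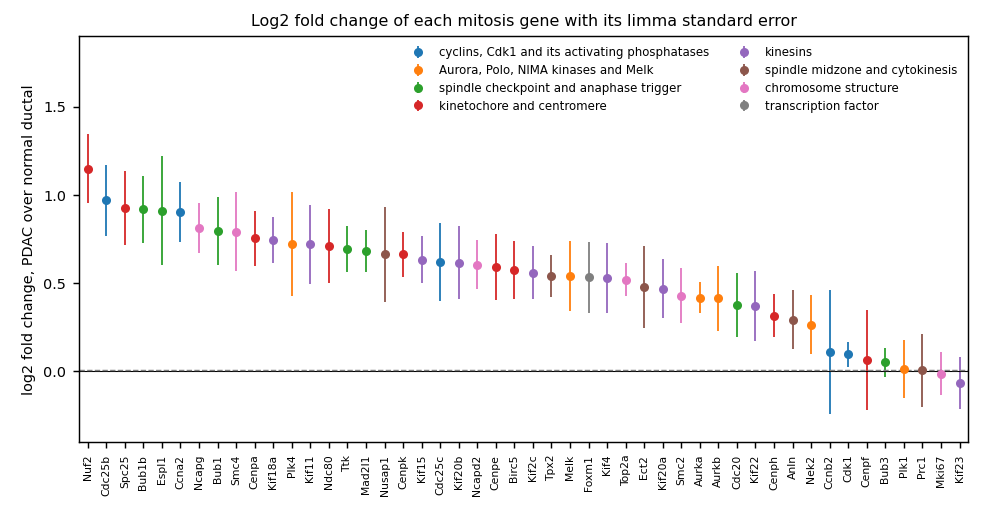
Log2 fold change of PDAC over normal ductal cultures for the 48 members, in descending order, with the limma standard error as bars and the role as colour. The dashed line is the median of all genes, 0.01, and the values run from 1.15 for Nuf2 to -0.06 for Kif23.

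Mitotic genes share promoter elements, which the RefSeq promoter windows of the GRCm38.p6 assembly (250 bases before to 50 after a start site) allow to be read. The cell cycle homology region, written here as TTTGAA or TTCGAA, is bound by the MuvB complex, and CCAAT boxes are bound by NF-Y. Both motifs were searched on both strands, overlap between them was allowed, and a match that reads the same on both strands was counted once. Windows were found for 41 of the 48 members, 46 windows in all. A cell cycle homology match lay in 33 of the 46 windows (71.7%), against 19.2% of all 32851 windows in the table. CCAAT lay in 34 (73.9%) against 37.4%, and both in 28 (60.9%) against 7.52%. Of the 47 cell cycle homology matches in members' windows, 31 began within 50 bases of the start site (66.0%), against 25.2% of the 7260 matches in all windows.

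The windows below are shown because they are those of members with small p that hold a cell cycle homology match, followed by Cdk1 and Ccnb2, which were chosen after their values were seen as members with the same motifs and small differences. Each runs from 250 bases before to 30 after the start site, 5′ to 3′ on the gene's strand, with matches to either motif on either strand in capitals. Aurka was left out because its match lies beyond the stretch shown. The stretches are, in GRCm38.p6, chr5:45669675-45669954 on the plus strand for Ncapg, chr11:99024160-99024439 on the minus strand for Top2a, chr9:83834439-83834718 on the plus strand for Ttk, and chr5:30666636-30666915 on the plus strand for Cenpa. For Cdc25b it is chr2:131186698-131186977 on the plus strand, for Cdk1 chr10:69352883-69353162 on the minus strand and for Ccnb2 chr9:70421525-70421804 on the minus strand.
Ncapg: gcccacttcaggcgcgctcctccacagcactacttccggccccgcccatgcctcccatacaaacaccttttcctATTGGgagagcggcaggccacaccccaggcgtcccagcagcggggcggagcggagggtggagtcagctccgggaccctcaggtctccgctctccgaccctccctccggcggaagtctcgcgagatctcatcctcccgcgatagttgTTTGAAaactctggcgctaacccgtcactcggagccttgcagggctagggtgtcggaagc
Top2a: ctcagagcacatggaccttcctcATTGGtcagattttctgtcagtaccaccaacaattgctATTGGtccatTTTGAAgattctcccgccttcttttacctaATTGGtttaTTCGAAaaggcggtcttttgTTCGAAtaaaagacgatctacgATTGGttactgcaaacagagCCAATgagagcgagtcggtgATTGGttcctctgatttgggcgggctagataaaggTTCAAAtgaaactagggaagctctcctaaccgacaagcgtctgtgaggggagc
Ttk: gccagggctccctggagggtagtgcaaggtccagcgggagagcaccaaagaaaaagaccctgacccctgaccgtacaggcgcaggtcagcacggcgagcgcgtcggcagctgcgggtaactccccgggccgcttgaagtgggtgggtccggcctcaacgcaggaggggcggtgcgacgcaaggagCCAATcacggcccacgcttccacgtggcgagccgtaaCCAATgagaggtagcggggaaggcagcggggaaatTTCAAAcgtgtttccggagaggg
Cenpa: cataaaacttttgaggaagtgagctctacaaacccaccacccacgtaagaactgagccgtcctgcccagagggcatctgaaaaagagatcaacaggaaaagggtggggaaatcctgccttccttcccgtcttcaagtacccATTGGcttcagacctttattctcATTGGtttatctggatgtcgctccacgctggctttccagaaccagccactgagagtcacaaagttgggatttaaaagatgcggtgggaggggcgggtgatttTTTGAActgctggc
Cdc25b: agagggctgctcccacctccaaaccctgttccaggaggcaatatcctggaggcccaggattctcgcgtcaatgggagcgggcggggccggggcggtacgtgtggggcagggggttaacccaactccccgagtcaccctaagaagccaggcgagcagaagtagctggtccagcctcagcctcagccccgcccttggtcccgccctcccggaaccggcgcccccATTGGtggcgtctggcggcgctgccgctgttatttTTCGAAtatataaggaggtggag
Cdk1: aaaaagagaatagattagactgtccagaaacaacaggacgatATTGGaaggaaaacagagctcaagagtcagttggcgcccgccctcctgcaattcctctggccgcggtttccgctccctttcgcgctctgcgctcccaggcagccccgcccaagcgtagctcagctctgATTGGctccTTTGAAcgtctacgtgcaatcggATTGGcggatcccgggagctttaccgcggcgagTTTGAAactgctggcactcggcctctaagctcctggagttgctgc
Ccnb2: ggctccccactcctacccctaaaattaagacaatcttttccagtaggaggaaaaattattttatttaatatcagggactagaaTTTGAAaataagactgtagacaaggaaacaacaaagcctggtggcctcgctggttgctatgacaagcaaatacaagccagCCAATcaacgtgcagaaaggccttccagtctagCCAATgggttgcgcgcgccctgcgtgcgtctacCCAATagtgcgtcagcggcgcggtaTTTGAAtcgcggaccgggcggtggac

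Ncapg has a single homology match 30 bases before its start site, and Top2a has 4, with the nearest 23 bases before it and 6 CCAAT matches upstream. In Ttk, Cenpa and Cdc25b the match begins 7, 16 and 7 bases after the start site. Ccnb2 shows a match 4 bases after its start site and CCAAT matches 21, 54 and 87 bases before it, and Cdk1 a match 15 bases before with a CCAAT 48 bases before. Members with and without a homology match overlapped in the size of the difference. The median log2 fold change was 0.52 in the 30 members with a homology match (-0.06 to 0.97) and 0.66 in the 11 without one (0.27 to 1.15). In 22 of the 30 and 10 of the 11 every PDAC culture lay above both normal ductal cultures, against 13.6% of all genes. Nuf2, Kif18a and Mad2l1, the 3 members with the smallest p, held neither motif in these windows.

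**Figure D3:**
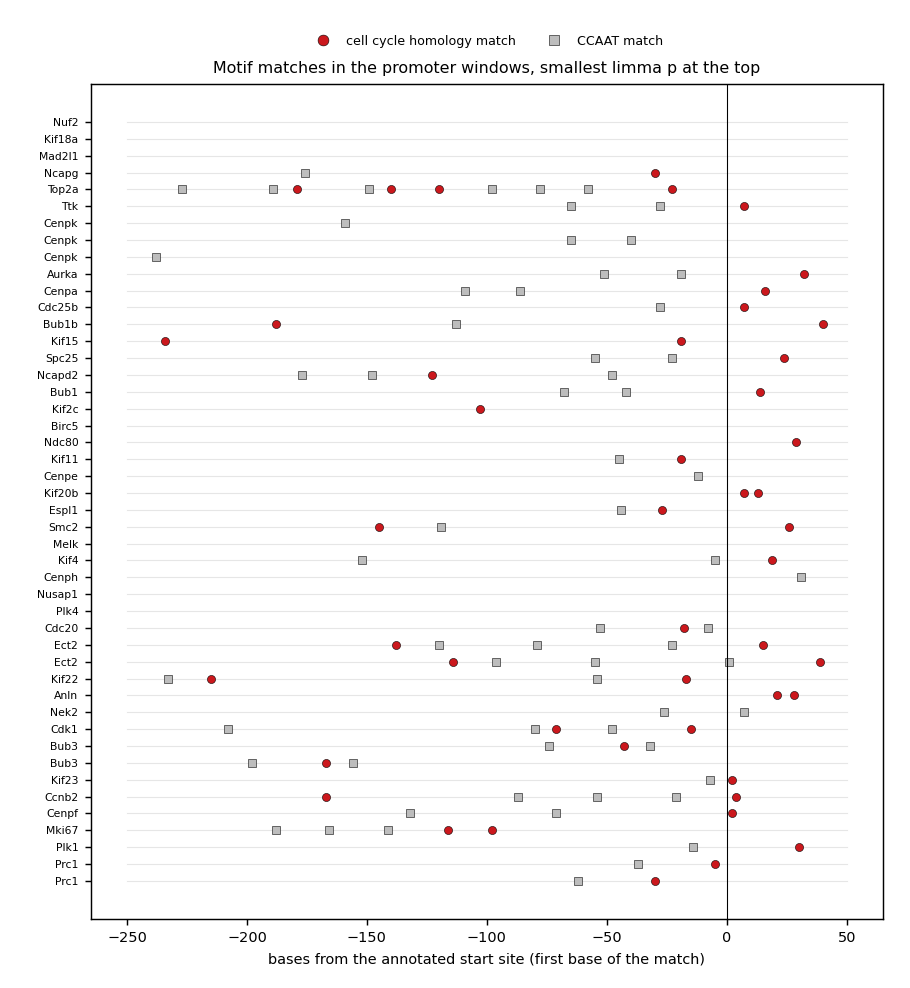
Position of each cell cycle homology match (red circles) and CCAAT match (grey squares) in the 46 promoter windows of 41 members, in bases from the annotated start site, with members ordered by limma p from the smallest at the top. Red circles crowd within 50 bases of the start site (31 of 47) along the whole order, also in the members with the largest p at the bottom.

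Among the cyclins, Cdk1 and its activating phosphatases, 4 of 5 measured members had all PDAC cultures above both normal ductal cultures. This pattern was seen in 13.6% of all genes. The median log2 fold change of the 5 was 0.62. Ccna2, the cyclin of S phase and early mitosis, had log2 signals of 10.50 and 10.27 in the 2 normal ductal cultures against 11.29, 11.51 and 11.06 in the PDAC cultures. The groups did not overlap, with PDAC replicate 3 the nearest to the normal ductal values (log2 fold change 0.90, SE 0.17, unadjusted p = 0.00648, adjusted p = 0.209). Cdc25b, a phosphatase that activates Cdk1 at the centrosome, stood at 7.55 and 7.48 against 8.26, 8.39 and 8.81, again without overlap and with PDAC replicate 3 highest (0.97, SE 0.20, adjusted p = 0.219). Its relative Cdc25c had a log2 fold change of 0.62 (SE 0.22, adjusted p = 0.376).

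Cdk1 itself had a small difference. Its log2 signal was 9.58 and 9.57 in the 2 normal ductal cultures against 9.64, 9.64 and 9.74 in the PDAC cultures, which differed in the mean by 0.10 (SE 0.07, adjusted p = 0.574). All PDAC values lay above the normal ductal ones, but by only 0.06 at the nearest. Ccnb2, a B-type cyclin, was the member that varied most among the PDAC cultures (SD 0.53, n = 3). It had the same deposited value of 10.56 in both normal ductal cultures and 10.18, 10.60 and 11.23 in PDAC replicates 1, 2 and 3. PDAC replicate 1 thus lay below the normal ductal value and replicate 3 above it (log2 fold change 0.11, SE 0.35, adjusted p = 0.913), and without replicate 3 the log2 fold change was -0.17.

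The other kinases, of the Aurora, Polo and NIMA families together with Melk, had a median difference of 0.42 in log2. In 4 of the 6 every PDAC culture lay above both normal ductal cultures, against 13.6% of all genes. Aurka, which matures the centrosomes and builds the spindle poles, stood at 9.52 and 9.41 in the 2 normal ductal cultures against 9.80, 9.91 and 9.94 in the PDAC cultures. Both groups were tight and apart (0.42, SE 0.09, unadjusted p = 0.00855, adjusted p = 0.218). Aurkb, the kinase of the chromosomal passenger complex that corrects wrong attachments, had a similar mean difference with a wider spread, at 9.93 and 9.67 against 9.95, 10.29 and 10.40 (0.41, SE 0.18, adjusted p = 0.476). Its lowest PDAC value cleared the highest normal ductal value by 0.02. Plk1, the Polo kinase that acts from mitotic entry to cytokinesis, stood at 10.94 and 10.95 against 10.72, 10.95 and 11.20. Its PDAC values spanned the normal ductal ones (0.01, SE 0.16, adjusted p = 1).

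Plk4, which starts the duplication of centrioles, was the second most variable member among PDAC cultures. It stood at 8.41 and 8.29 in the 2 normal ductal cultures against 9.05, 9.52 and 8.64 in the PDAC cultures (0.72, SE 0.30, adjusted p = 0.435). Replicate 3 was the lowest PDAC culture here, whereas in Ccnb2 it was the highest. Melk, a kinase of proliferating cells, had a log2 fold change of 0.54 (SE 0.20, adjusted p = 0.383), and Nek2, which separates the centrosomes, 0.27 (SE 0.17, adjusted p = 0.550). Nek2 held the same deposited value, 9.32, in normal ductal replicate 1 and in PDAC replicates 2 and 3.

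Spindle checkpoint and anaphase genes differed by a median of 0.69 in log2. In 6 of 7 every PDAC culture lay above both normal ductal cultures, against 13.6% of all genes. Mad2l1, which encodes the checkpoint protein that binds Cdc20, stood at 9.36 and 9.65 in the 2 normal ductal cultures against 10.16, 10.15 and 10.26 in the PDAC cultures. The PDAC values spanned 0.11 and lay 0.50 or more above the normal ductal ones (0.68, SE 0.12, unadjusted p = 0.00482, adjusted p = 0.194). Bub1b, the gene of BubR1, stood at 9.15 and 8.72 against 9.75, 9.76 and 10.05 (0.92, SE 0.19, adjusted p = 0.221). Here too the groups were apart, with normal ductal replicate 2 lowest. Ttk, the Mps1 kinase that starts checkpoint signalling at unattached kinetochores, stood at 8.63 and 8.59 against 9.11, 9.35 and 9.44, a difference of 0.69 (SE 0.13, adjusted p = 0.208).

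Bub1, the kinase that recruits other checkpoint proteins, had a log2 fold change of 0.80 (SE 0.20, unadjusted p = 0.0159, adjusted p = 0.267). Bub3, the partner that brings Bub1 and BubR1 to the kinetochore, had a smaller difference than the others, with values of 10.01 and 10.04 in the 2 normal ductal cultures against 9.98, 10.09 and 10.17 in the PDAC cultures (0.05, SE 0.08, adjusted p = 0.795). The groups overlapped. Cdc20, the activator of the anaphase-promoting complex that the checkpoint restrains, stood at 9.50 and 9.38 against 9.62, 10.11 and 9.72, with PDAC replicate 2 alone more than 0.5 above the normal ductal values (0.38, SE 0.18, adjusted p = 0.520). Espl1, the gene of separase, which cuts cohesin at anaphase, stood at 7.66 and 7.29 against 8.56, 8.70 and 7.90. PDAC replicate 3 lay close to the normal ductal cultures and the other PDAC cultures well above (0.91, SE 0.31, adjusted p = 0.358).

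**Figure D4:**
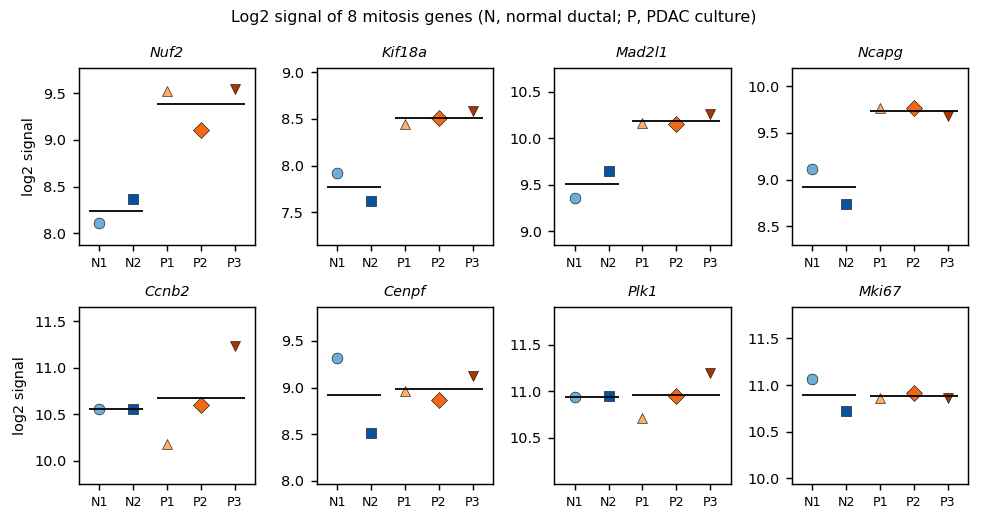
Log2 signal (vertical axis, the same span in each panel) in the 2 normal ductal (N) and 3 PDAC (P) cultures for the 4 members with the smallest limma p (top) and 4 members with small mean differences (bottom), with group means as lines. The top genes separate the groups, whereas in Ccnb2, Cenpf, Plk1 and Mki67 the values of the groups overlap.

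Kinetochore and centromere genes gave 7 unadjusted calls among 9 members, all higher, against 6.5% of all genes called higher. In 8 of the 9 every PDAC culture lay above both normal ductal cultures, against 13.6% of all genes. Nuf2, a subunit of the Ndc80 complex that grips microtubules (chromosome 1, 169497934 to 169531464 in GRCm38), had the smallest p and the largest difference of all members. Its log2 signal was 8.11 and 8.37 in the 2 normal ductal cultures against 9.52, 9.10 and 9.54 in the PDAC cultures. Every PDAC value was at least 0.73 above the higher normal ductal value, a 2.22-fold difference of the group means (log2 fold change 1.15, SE 0.19, unadjusted p = 0.00439, adjusted p = 0.190). Of the other subunits of this complex, Spc24, which is not among the 49 genes, had a log2 fold change of 1.22 (SE 0.58, adjusted p = 0.507). The log2 fold change was 0.93 (SE 0.21, adjusted p = 0.243) for Spc25 and was 0.71 (SE 0.21, adjusted p = 0.315) for Ndc80.

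Cenpa, the histone H3 variant that marks the centromere, stood at 9.75 and 9.55 in the 2 normal ductal cultures against 10.57, 10.19 and 10.46 in the PDAC cultures, with no overlap (0.76, SE 0.15, adjusted p = 0.218). Cenpk, of the inner kinetochore, stood at 6.34 and 6.61 against 7.10, 7.05 and 7.27, also with no overlap (0.66, SE 0.13, adjusted p = 0.210). Cenpe, the kinesin that carries chromosomes to the spindle equator, had 0.59 (SE 0.19, adjusted p = 0.333), and Cenph 0.32 (SE 0.12, adjusted p = 0.400). Birc5, the survivin subunit of the passenger complex, stood at 8.93 and 9.01 against 9.34, 9.78 and 9.51 (0.57, SE 0.16, adjusted p = 0.305). The normal ductal cultures were close together here and all PDAC cultures were above them.

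Cenpf, a large protein of the outer kinetochore, was the exception, and it is described because of that. Normal ductal replicate 1 read 9.32 and replicate 2 read 8.52, the widest gap between these cultures among the members, while PDAC cultures read 8.96, 8.86 and 9.13. All PDAC values lay between the normal ductal ones (0.07, SE 0.28, adjusted p = 0.949). Leaving out normal ductal replicate 2 turned the log2 fold change to -0.34, and leaving out replicate 1 made it 0.47.

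Of the 9 kinesins, the motors that move along or take apart microtubules, 8 had every PDAC culture above both normal ductal cultures. This held in 13.6% of all genes. At an unadjusted p under 0.05, 6 of the 9 were higher, against 6.5% of all genes. Kif18a, which dampens chromosome oscillations at the spindle equator (chromosome 2, 109280738 to 109341749), stood at 7.92 and 7.62 in the 2 normal ductal cultures against 8.45, 8.51 and 8.59 in the PDAC cultures. The PDAC values were tight and 0.53 or more above the normal ductal ones (0.75, SE 0.13, unadjusted p = 0.00463, adjusted p = 0.193). Kif15, which helps keep the spindle bipolar, stood at 7.92 and 8.02 against 8.62, 8.78 and 8.43 (0.63, SE 0.13, adjusted p = 0.226). The motor Kif11, which pushes the spindle poles apart, had 0.72 (SE 0.23, adjusted p = 0.331), and Kif2c, which depolymerises microtubules, 0.56 (SE 0.15, adjusted p = 0.289).

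Kif20b had a log2 fold change of 0.62, Kif4 0.53, Kif20a 0.47 and Kif22 0.37, with adjusted p between 0.353 and 0.550. Kif23, the motor of the centralspindlin complex that works in cytokinesis, stood at 10.45 and 10.25 in the 2 normal ductal cultures against 10.12, 10.48 and 10.25 in the PDAC cultures. Its values overlapped fully, with a log2 fold change of -0.06 (SE 0.15, adjusted p = 0.863).

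Among the 5 members grouped as spindle midzone and cytokinesis genes, 3 had every PDAC culture above both normal ductal cultures, against 13.6% of all genes. Their median log2 fold change was 0.48. Tpx2, which activates Aurka on the spindle, was the 1 of these 5 genes higher at an unadjusted p under 0.05, against 6.5% of all genes. Tpx2 stood at 10.11 and 9.89 in the 2 normal ductal cultures against 10.46, 10.48 and 10.68 in the PDAC cultures, with no overlap (0.54, SE 0.12, unadjusted p = 0.0109, adjusted p = 0.235). Nusap1, which bundles microtubules, had 0.67 (SE 0.27, adjusted p = 0.430), with PDAC replicate 3 highest at 9.93 against 9.23 and 9.29. Ect2 and Anln, which direct the contractile ring, had 0.48 (SE 0.23, adjusted p = 0.522) and 0.29 (SE 0.17, adjusted p = 0.550). Prc1, which crosslinks midzone microtubules, stood at 9.92 and 9.67 against 9.49, 10.01 and 9.91 (0.01, SE 0.21, adjusted p = 1), so PDAC replicate 1 was the lowest of the 5 cultures.

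Genes of chromosome structure gave 4 unadjusted calls among 6 members, all higher, against 6.5% of all genes called higher. Ncapg, a subunit of condensin I (chromosome 5, 45669891 to 45700547), stood at 9.11 and 8.73 in the 2 normal ductal cultures against 9.77, 9.76 and 9.68 in the PDAC cultures. The PDAC values spanned 0.09, and both normal ductal cultures lay below them (0.81, SE 0.14, unadjusted p = 0.00516, adjusted p = 0.198). Without normal ductal replicate 1 its log2 fold change was 1.0035, with a limma adjusted p of 0.0377. In that fit the spread comes from the PDAC arrays alone, the lone normal ductal array is assumed to vary like them, and 980 genes were called higher, so the p says nothing particular to Ncapg. The log2 fold changes of the other condensin subunits had the same sign, with 0.61 (SE 0.14, adjusted p = 0.245) for Ncapd2, 0.79 (SE 0.22, adjusted p = 0.306) for Smc4 and 0.43 (SE 0.16, adjusted p = 0.382) for Smc2.

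Top2a, the topoisomerase that untangles sister chromatids, stood at 10.16 and 9.99 against 10.50, 10.65 and 10.64, with no overlap (0.52, SE 0.09, unadjusted p = 0.00545, adjusted p = 0.200). It was the only member with a second probe set of its own, where the log2 fold change was 0.48. Mki67, the antigen used to count cycling cells in tissue, stood at 11.06 and 10.72 in the 2 normal ductal cultures against 10.86, 10.92 and 10.86 in the PDAC cultures. All PDAC values lay between the normal ductal ones (-0.01, SE 0.12, adjusted p = 0.998). Foxm1, the transcription factor that drives many of these genes, stood at 9.19 and 9.04 against 9.71, 9.90 and 9.35. All PDAC cultures were above both normal ductal cultures, replicate 3 by the least (0.53, SE 0.20, adjusted p = 0.393).

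The SD among the PDAC cultures was above 0.3 in 6 of the 48 members (12.5%), against 23.2% of all genes. PDAC replicate 1 was the lowest of the PDAC cultures in 31 of the 48 members, against 27.4% of all genes. An equal value did not count as lowest here, nor as below in the count for the normal ductal cultures that follows. Equal values on 2 or more arrays were found in 47.8% of all genes and 8.33% of the members, which lowers the shares of all genes more. In 6 of 48 members (12.5%) replicate 3 lay more than 0.5 above replicate 1, among them Ccnb2, Nusap1 and Kif11, and in 1 (2.08%), Espl1, more than 0.5 below it, against 8.95% and 9.13% of all genes. Replicate 2 lay more than 0.5 above replicate 1 in 3 members and below it in 0, against 7.42% and 5.01%. Replicate 1 was also the culture with the lowest duct marker mean, 6.46 against 7.54 and 9.29, and the part of this in the difference was not tested. Between the normal ductal cultures, replicate 2 was below replicate 1 in 36 members (75.0%), against 57.4% of all genes, with a median difference of -0.15 over the members. A gap of more than 0.5 between the normal ductal cultures was found in 1 member (Cenpf), 2.08% against 14.1% of all genes.

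**Figure D5:**
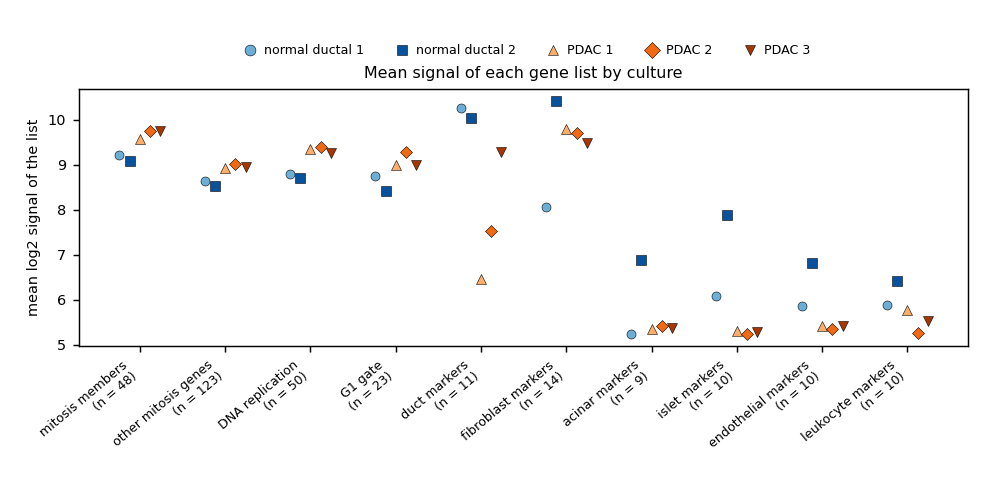
Mean log2 signal of each gene list in each culture (vertical axis), with the number of measured genes below each name. The mitosis members run from 9.09 to 9.75 and separate the groups, as do all other lists shown except the fibroblast and acinar markers. The duct, islet, endothelial and leukocyte means are lower in PDAC. Duct markers spread widely among PDAC cultures and fibroblast, acinar and islet markers between the normal ductal ones.

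Other genes of mitosis, listed with the members but not among them, showed the higher pattern in a smaller share (58.5% against 81.2% of the members and 13.6% of all genes), a difference that was not tested. Of 123 measured of 133 listed, 72 had every PDAC culture above both normal ductal cultures. In 5 every PDAC culture lay below both, against 12.8% of all genes. By unadjusted p, 46 were higher (against 6.5% of all genes) and 2 lower (against 6.86%). The adjusted test was passed by 0 in either direction. Their median log2 fold change was 0.34. Kinetochore and checkpoint genes outside the list came closest to the members, with 24 of 32 apart and a median of 0.47, and the smallest p belonged to the centromere genes Cenpu (0.94, adjusted p = 0.166) and Cenpn (0.81, adjusted p = 0.176), while Cenpm had the largest difference (1.48, adjusted p = 0.391). The 4 remaining condensin subunits had a median of 0.72, with Ncaph2 at 0.63 (adjusted p = 0.212) and Ncaph at 1.02 (adjusted p = 0.288).

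Among genes of mitotic entry, 9 of 20 were apart in the higher direction, a pattern seen in 13.6% of all genes. The median of the 20 was 0.26, and the smallest p was that of Ccnf, an F-box cyclin, at 1.004 (SE 0.11, adjusted p = 0.148). Pkmyt1, a kinase that inhibits Cdk1, had 0.95 (SE 0.29, adjusted p = 0.329). Of 16 genes of the passenger complex, cohesin and separase control, 8 were apart in the higher direction (median 0.22). The cohesin ring subunit Rad21 had 0.66 (SE 0.11, adjusted p = 0.185), and Esco1, which acetylates cohesin, had -0.43 (SE 0.09, adjusted p = 0.214), with 7.496 and 7.54 in the 2 normal ductal cultures against 7.01, 7.20 and 7.04 in the PDAC cultures. Of 51 genes of spindle, centrosome, cytokinesis and the anaphase-promoting complex, 28 were apart in the higher direction (median 0.32), with Anapc1, the scaffold of the anaphase-promoting complex, at 0.70 (SE 0.07, adjusted p = 0.148) and Troap at 0.96 (SE 0.13, adjusted p = 0.165).

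Genes of the neighbouring cell cycle steps are given for comparison. Over the 50 measured DNA replication genes the median difference was 0.62 in log2. In 40 of them (80%) every PDAC culture lay above both normal ductal cultures, against 81.2% of the members and 13.6% of all genes. At an unadjusted limma p under 0.05, 29 were higher, against 26 of the 48 members and 6.5% of all genes. In the 23 measured genes of the G1 gate the median was 0.40, with 13 (56.5%) in the higher pattern and 9 higher by unadjusted p. Limma called 0 of either list after adjustment. Whether the mitotic genes differ from these lists was not tested.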

How the data were processed

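The analysis used the deposited log2 signals of 35556 probe sets, from 0.727 to 13.9. The submitters' processing notes name Transcriptome Analysis Console 1.0.0.234 and the mm10 build; how the authors corrected background, normalized arrays and summarised probes was not given in the sources used here. That the scale is log2 follows from the range of values. Per the labels' protocols, column-purified RNA was amplified and labelled with biotin.

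Probe sets with 1 symbol in the platform annotation (21789) were reduced to the one with the highest mean per gene, leaving 19938 genes. Symbols were checked by Entrez identifier against RefSeq GRCm38.p6, with 0 changed. Groups came from the titles. A linear model (limma 3.58.1, R 4.3.3; lmFit, then eBayes with an intensity trend, two-sided, 3 residual degrees of freedom) was fitted to all genes, adjusted by Benjamini-Hochberg over all of them, with a threshold of 0.05, and was tested on simulated data. The small number of arrays limits the precision.

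The members and lists were chosen with earlier results of these data known. Values per culture were given for the 14 members with the smallest p, those of opposite sign, a fixed set of central genes and the 3 most variable in PDAC. Bub3, Cenpf, Nek2, Nusap1, Prc1, Spc24 and Cenpm were added after their values were seen. Other mitosis genes named are the 2 with the smallest p per list. Promoters and figures used Python 3.11.15, pandas 2.3.3 and matplotlib 3.10.9. Each result was recomputed after quantile normalization, with arrays shifted to 1 median, without the dimmest 25% or 50% of genes, without the trend, with robust eBayes, with all probe sets of a gene averaged, with replicate number as a block, and without each culture.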

Additional observations from a re-analysis of the deposited data

How the results depend on the processing

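With each alternative the median log2 fold change of the members stayed positive, from 0.48 to 0.65. No alternative that kept all 5 cultures called a member after adjustment, and leaving out each culture in turn gave between 0 and 1 higher, while 0% to 4.92% of all genes were called higher in these fits (4.92% in the fit with the 1, without normal ductal replicate 1). At an unadjusted p under 0.05 the count of higher members was 10 with the replicate block (5.54% of all genes), between 11 and 27 with 1 culture left out (4.68% to 13.5%), and between 26 and 34 otherwise (6.5% to 11.4%; 10.2% at the 34, with a common array median). In every alternative that kept all 5 cultures, 0 members were lower at an unadjusted p under 0.05. Without normal ductal replicate 2, every PDAC culture lay below the remaining normal ductal culture in 2 members, Cenpf (log2 fold change -0.34) and Mki67 (-0.18). With any other culture left out this held in 0 members. Shares of all genes in the lower direction are not given for these alternatives. The replicate numbers gave no sign of pairing: the correlation over all genes of the replicate 1 minus 2 differences in normal ductal and in PDAC was -0.14, and with the block only replicates 1 and 2 set the difference, on 1 residual degree of freedom.

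Of 624 single values over 13 alternatives, 604 kept their sign and side of the threshold, 1 passed it and 19 changed sign, all in members within 0.12 of 0. Under quantile normalization Plk1 had -0.071, Prc1 -0.037 and Bub3 -6.64e-05. With a common array median, which adds 0.08 to every gene, Kif23 had 0.019 and Mki67 0.071. With the replicate block Ccnb2 had -0.17, Plk1 -0.11, Prc1 -0.048 and Cenpf -0.0060. Leaving out 1 culture moved Ccnb2 between -0.17 and 0.36, Plk1 between -0.11 and 0.13, Prc1 between -0.12 and 0.16, Cenpf between -0.34 and 0.47, Kif23 between -0.16 and 0.033 and Mki67 between -0.18 and 0.16. The cause was not tested.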

Other observations

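In 4 of the 48 members (8.33%) 2 or more arrays held exactly the same deposited value, against 47.8% of all genes. They were Ccnb2, Nek2, Kif23 and Mki67, and the groups were apart in none of them. In Nek2 and Kif23 a normal ductal and a PDAC culture shared the value, so those groups could not be apart.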
